A study of Homo sapiens with 12 samples.

Results

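The genes described here are 32 known transcriptional targets of the tumour suppressor p53, chosen by name and matched by Ensembl identifier to the 60483 rows of a deposited count table. Of the 32, 30 had enough counts to be tested, among 14412 genes tested in all; PHLDA3 (at most 0.206 CPM) and GDF15 (at most 0.152 CPM) did not. CPM is the count scaled to a common library total after TMM scaling, which corrects library totals for differences in composition. The cells were REC1, an established human mantle cell lymphoma line. They were given the vehicle DMSO, ibrutinib (a covalent inhibitor of the B-cell receptor kinase BTK), SPX5551 (named pol5551 in the table's column headers, an inhibitor of the chemokine receptor CXCR4) or ibrutinib and SPX5551 together, and poly(A) RNA was sequenced at 4, 8 and 12 h. There was 1 library for each of the 4 treatments at each of the 3 times, 12 libraries in all. The line is 1 cell line with no repeat culture of any treatment and time, and doses were not given in the labels used here.

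p53 is a transcription factor that is held at a low level by MDM2, a ubiquitin ligase whose own gene p53 activates, so that the pair forms a feedback loop. When DNA damage or other stress frees p53 from MDM2, it binds response elements made of a pair of half-sites and raises genes for cell cycle arrest, DNA repair, metabolism and cell death. CDKN1A (p21) and MDM2 are among the most widely induced of these genes. The comparison asks whether these genes moved together after either agent.

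Promoter letters that match the p53 half-site pattern are shown for some of these genes. A search for a pair of p53 half-sites (each 10 bases, at most 13 bases apart, at most 2 mismatches in the pair and none in the C and G of each half-site core, on both strands; overlap with other motifs was not examined) was run in RefSeq promoter windows of the build GRCh38.p14, which run from 250 bases before to 50 bases after a transcription start. Windows were found for 27 of the 32 genes, and 4 of these held a match: MDM2, DDB2, AEN and FDXR. Among all 27305 genes with a window, 3.62% held such a match. With no mismatch allowed, DDB2 remained, beside 0.0366% of all genes. These 4 are shown because MDM2 is the feedback gene and DDB2 and AEN passed a test below, and FDXR completes the set of matches; capitals mark bases 4 to 7 of each half-site, and all are written 5′ to 3′.
DDB2, chr11:47214979-47214999, plus strand, no mismatch: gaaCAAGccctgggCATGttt
MDM2, chr12:68808923-68808942, plus strand, 2 mismatches: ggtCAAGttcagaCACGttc
AEN, chr15:88621306-88621325, plus strand, 2 mismatches: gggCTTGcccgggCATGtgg
FDXR, chr17:74872996-74873025, minus strand, 2 mismatches: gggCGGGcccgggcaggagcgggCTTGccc
The DDB2 match begins 5 bases after a start, and those of MDM2, AEN and FDXR begin 94, 34 and 31 bases before one. All 4 lie within the span of their own gene in GENCODE 29, near its 5′ end. A match is a description of letters in these windows and not a measured binding site.

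Total counts ranged from 19336303 to 28934030 per library, and no library repeated another. Columns were assigned by the treatment and time in their headers, as in the sample titles (ibr was read as ibrutinib); the free-text descriptions name other columns, and that reading reverses several values, given in the closing section. Over all genes, expression relative to the gene's mean varied with transcript length by library, from a rank correlation of -0.41 (8 h SPX5551) to 0.42 (8 h ibrutinib), and fold changes with ibrutinib exposure and SPX5551 exposure correlated with length at 0.37 and -0.40. Beside the labels, 10 early response genes of B-cell receptor signalling were read, among them EGR3 and CCL4. The list was chosen with earlier results of these data known, so it is no independent check. With ibrutinib exposure 10 of 10 passed lower (median log2 fold change -1.63), against 6.58% of all genes. With ibrutinib alone against DMSO 7 of 10 did (0.104% of all genes passed), and 0 of 10 passed with SPX5551 exposure (7.01%). Summed B-cell markers stood at 4067 to 5399 CPM, T-cell markers at 6.66 to 10.0 CPM with CD2 at or near 0, myeloid markers at 1.04 to 2.14 CPM with FCGR3A at 0, and stromal and epithelial markers at 62.9 to 127 CPM with overlapping ranges in all treatments. Of single markers, PAX5 (of 8 tested B-cell markers) was lower with SPX5551 exposure (log2 fold change -0.56 ± 0.11), and TRAC (of 3 T-cell markers) was lower with ibrutinib exposure (-1.17 ± 0.27). Of 5 stromal and epithelial markers, EPCAM was lower (-0.40 ± 0.13) and PECAM1 higher (0.26 ± 0.08) with ibrutinib and PDGFRB lower with SPX5551 (-0.42 ± 0.11), and 0 of 2 myeloid markers passed. The part of these markers in the results was not tested.

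The genes differed widely in level. Per kilobase of the longest annotated transcript, the mean level over the 12 libraries was highest for EI24, an endoplasmic reticulum protein of autophagy and cell death (195 CPM per kilobase). The antiproliferative gene BTG2 (56.4), the survival factor TRIAP1 (48.3) and CCNG1, the cyclin G1 gene (25.7), came next on the same scale. MDM2 ranked 11 of the 32 at 10.7 CPM per kilobase. The lowest tested genes on that scale were PLK2 (0.668), CDKN1A (0.607) and the mitophagy gene SPATA18 (0.116), and the untested PHLDA3 and GDF15 were lower still. CDKN1A, a widely used readout of p53 activity, ranged over 0.805 to 1.98 CPM.

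No coordinated rise of these genes was resolved with either agent. In bulk RNA, fewer cells with a transcript and less of it per cell cannot be told apart. A gene is said to have passed where its adjusted p (edgeR quasi-likelihood test, Benjamini-Hochberg over all 14412 genes) was under 0.05. The 2 main comparisons used all 12 libraries: the 6 libraries with ibrutinib, alone or combined, against the 6 without, and the 6 with SPX5551 against the 6 without, both with time in the model. No treatment and time was repeated, so p-values rest on how far treatment effects varied between times. The model of these 2 comparisons has no term for the combination, so any departure from the sum of the 2 agents also enters the spread. With ibrutinib exposure, 7 of 30 genes passed, 4 higher (APAF1, TP53INP1, POLH, SESN1) and 3 lower (PLK3, TRIAP1, MDM4), where 13.7% of all genes passed (7.14% higher, 6.58% lower). This split was 9 higher and 2 lower when libraries were scaled by their totals alone (15.6% of all genes passed). It was 4 and 6 with DESeq2 (16.4%), and 3 and 5 with the length trend removed (12.2%). With SPX5551 exposure, 2 of 30 passed, DDB2 higher and AEN lower, where 7.01% of all genes passed (2.12% higher, 4.89% lower). Scaled by totals alone, DDB2 was the 1 gene that passed, and DESeq2 gave 1 higher and 3 lower. With libraries left out, the share of all genes that passed moved too and is given in parentheses. The ibrutinib count was 11 without the 4 h SPX5551 library (15.9%), and 3 and 2 without 8 and 12 h SPX5551 (5.11% and 3.49%). It was 4 and 2 without 4 and 12 h combination (5.13% and 2.80%), and 1 and 2 without the 8 h and 12 h time points (0.574% and 1.25%). The SPX5551 count was 6 without 4 h SPX5551 (12.2%). It was 0 without 12 h DMSO, 4 h ibrutinib, 8 h ibrutinib or 8 h combination (0.554% to 1.67%), and 1 without 12 h ibrutinib, 12 h SPX5551, 4 h combination or 12 h combination (2.27% to 4.15%). The median log2 fold change of the 30 genes was 0.07 with ibrutinib exposure, against 0.02 over all genes, and 0.06 with SPX5551 exposure, against 0.01. The value was positive in 17 and 20 of the 30, against 53.7% and 51.1% of all genes. Under an unadjusted edgeR p of 0.05 were 17 and 8 of the 30, against 4581 and 3851 of all 14412 genes. For the combination against DMSO the median was 0.14, against 0.02 over all genes, with 18 of 30 positive, against 52.6%.

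**Figure D1:**
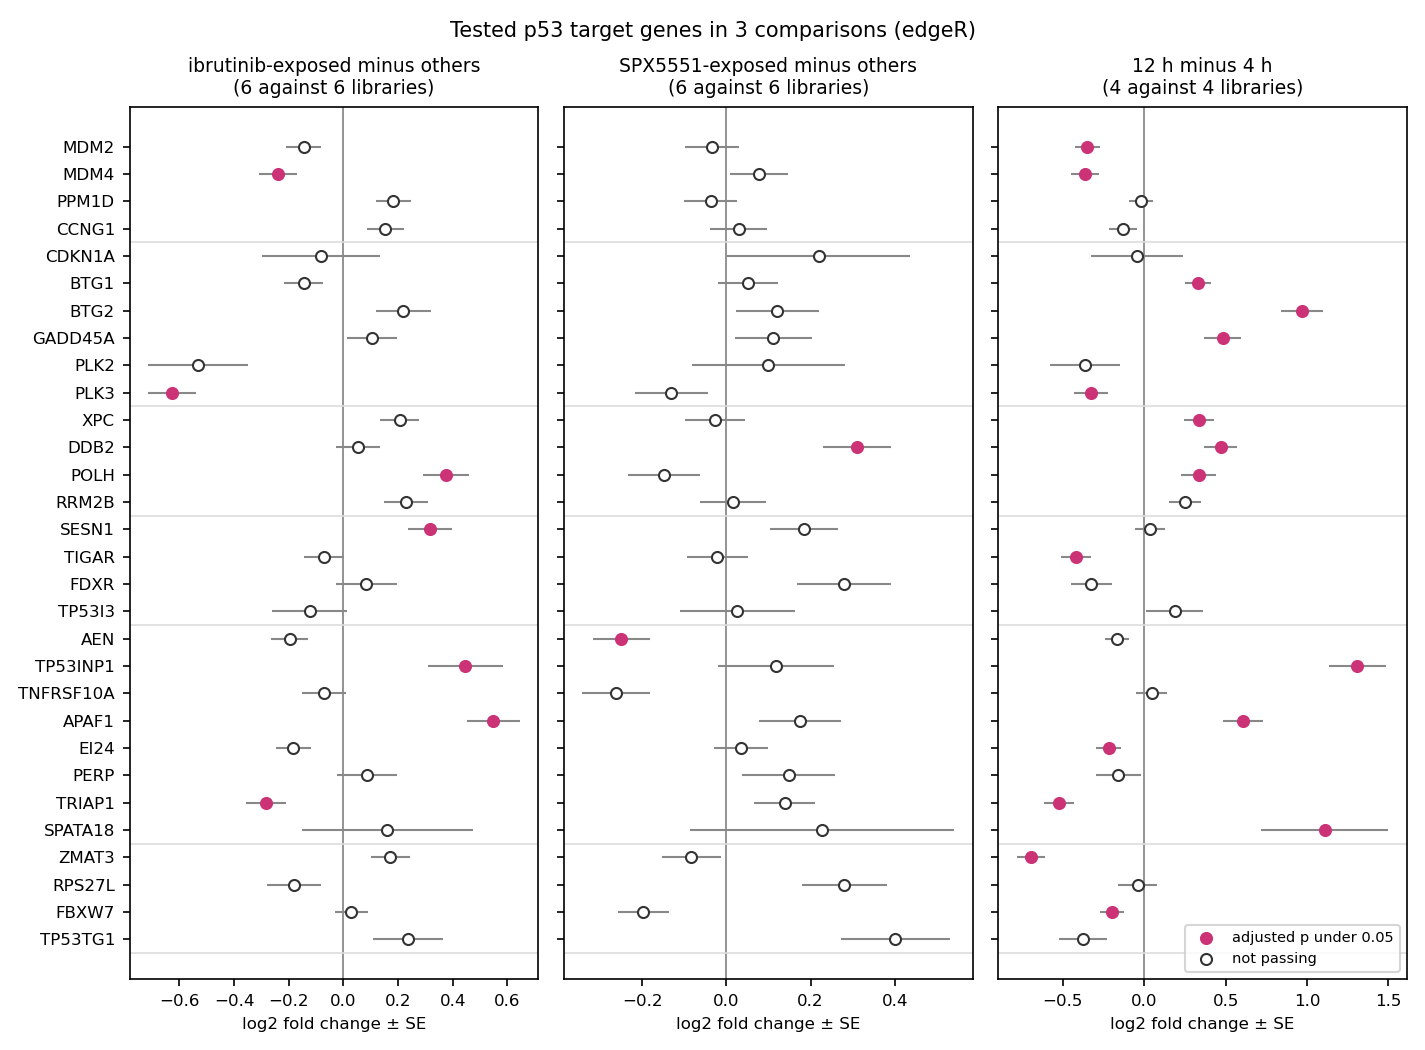
Log2 fold change and its standard error (x axis) for each of the 30 tested p53 target genes (y axis, grouped by role) with ibrutinib exposure, with SPX5551 exposure and from 4 to 12 h; filled points passed at an adjusted p under 0.05. Filled points lie on both sides of 0 in each panel, 4 above and 3 below in the ibrutinib panel, 1 on each side in the SPX5551 panel, and 9 above and 8 below in the time panel; the x axes differ between panels.

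The libraries taken one by one showed no common shift. Between 13 and 18 of the 30 genes were above their own 12-library mean in any library, and the 30 genes' median deviation ran from -0.05 to 0.11 on the log2 scale. The highest median, 0.11, was in DMSO at 4 h, a vehicle library. In the 6 matched pairs of libraries that differ in ibrutinib alone, 8 of 30 genes moved one way in every pair, 4 up and 4 down, where 14.2% of all genes did so. For SPX5551 the count was 5 of 30, 1 up (DDB2) and 4 down, against 12.3% of all genes.

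**Figure D2:**
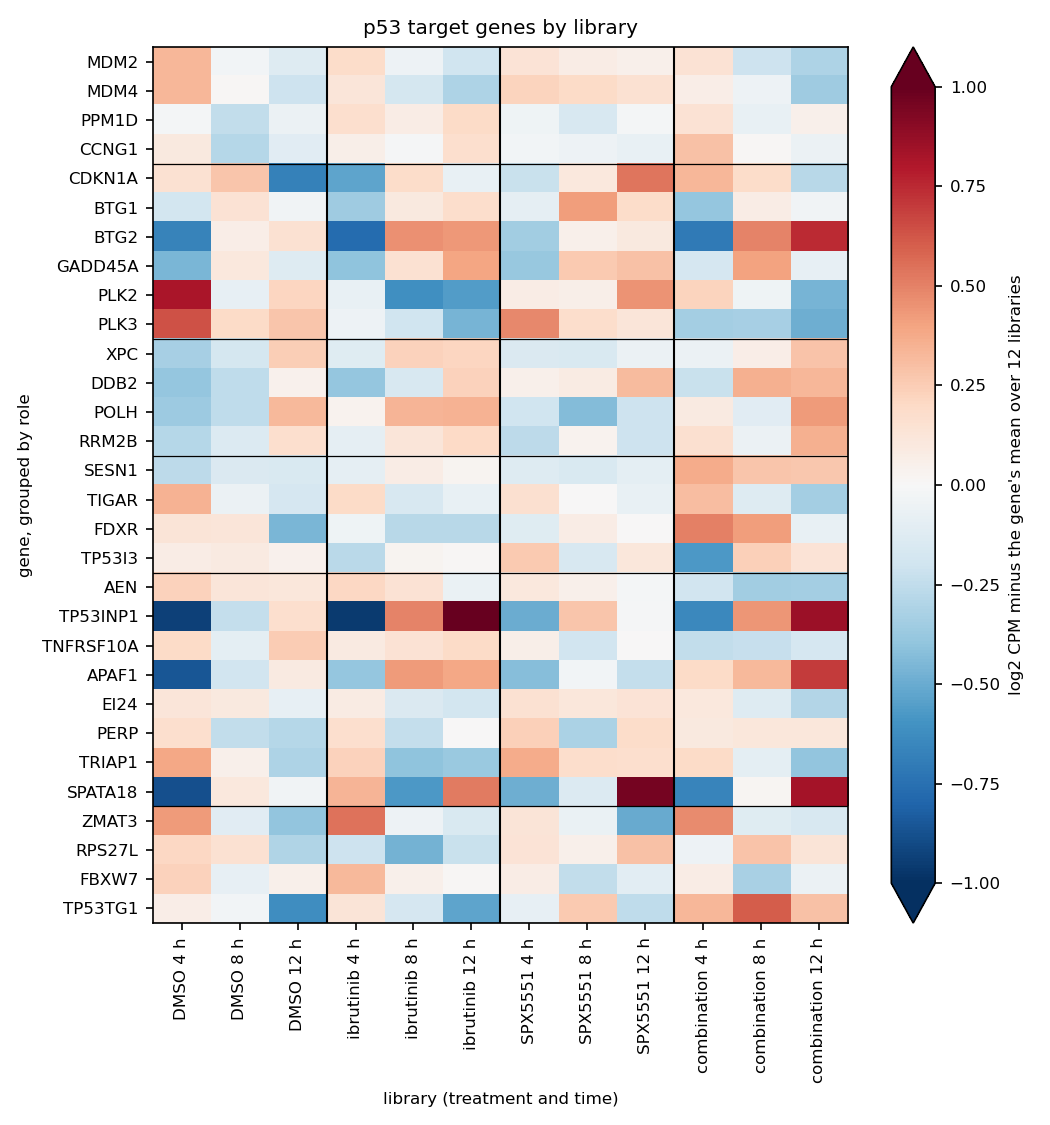
Log2 CPM minus the gene's mean over the 12 libraries (colour, from -1 to 1) for the 30 tested genes (rows, grouped by role) in each library (columns, by treatment and time). Rows of TP53INP1 and BTG2 run from blue at 4 h to red at 12 h with ibrutinib and with the combination, ZMAT3 runs the other way, and no column is of 1 colour.

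Of the 4 feedback genes, MDM4 passed, lower with ibrutinib. MDM2 (ENSG00000135679.20, chr12:68808176-68850686, hg38) stood, at 4, 8 and 12 h in that order here and below, at 169, 132 and 123 CPM with DMSO, 153, 129.8 and 117 with ibrutinib, 148, 142 and 139 with SPX5551 and 149, 117 and 109 with the combination. The 4 h DMSO library was the highest and the 12 h combination library the lowest, and all treatments overlapped. Neither exposure moved MDM2 past the threshold (ibrutinib log2 fold change -0.15 ± 0.06, adjusted p = 0.128, and SPX5551 log2 fold change -0.03 ± 0.06, adjusted p = 0.764). MDM2 was lower in 5 of 6 ibrutinib pairs, and it passed with ibrutinib exposure in 1 of the 23 alternatives run. MDM4, which binds and silences the activation domain of p53, stood at 66.4, 53.1 and 45.6 CPM with DMSO, 57.3, 46.5 and 42.4 with ibrutinib, 61.4, 60.3 and 58.7 with SPX5551 and 55.1, 50.9 and 41.1 with the combination. It was lower with ibrutinib in 6 of 6 matched pairs (log2 fold change -0.24 ± 0.07, adjusted p = 0.0317), while the groups overlapped across times. Leaving out 1 library ended that call for 5 of the 12 (4 h DMSO, 8 and 12 h SPX5551, 4 and 12 h combination; adjusted p 0.0580 to 0.0833), and leaving out any time point did so too (0.0756 to 0.175). PPM1D, a phosphatase that dampens p53 signalling, ranged over 23.5 to 32.04 CPM and had a log2 fold change of 0.18 ± 0.06 with ibrutinib in 6 of 6 pairs upward (adjusted p = 0.0603). CCNG1 ranged over 51.4 to 77.0 CPM, with 0.15 ± 0.07 (adjusted p = 0.127), so none of these 4 genes passed upward with a drug.

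Among the growth arrest genes, PLK3 fell with ibrutinib and CDKN1A showed no resolved change. CDKN1A (ENSG00000124762.12, chr6:36676460-36687339) stood at 1.496, 1.63 and 0.805 CPM with DMSO, 0.901, 1.53 and 1.26 with ibrutinib, 1.13, 1.44 and 1.98 with SPX5551 and 1.71, 1.53 and 1.09 with the combination. Its highest library was 12 h SPX5551 and its lowest 12 h DMSO, without order by treatment or time. The log2 fold changes were -0.08 ± 0.22 with ibrutinib (adjusted p = 0.825) and 0.22 ± 0.22 with SPX5551 (adjusted p = 0.543). These standard errors are wide, and the part of the low counts in them was not tested.
PLK3 (ENSG00000173846.11, chr1:44800225-44805990), a stress-responsive polo-like kinase, stood at 14.7, 10.8 and 11.5 CPM with DMSO, 9.15, 8.25 and 6.82 with ibrutinib, 13.3, 10.7 and 10.3 with SPX5551 and 7.45, 7.52 and 6.71 with the combination. All 6 libraries with ibrutinib lay below all 6 without it. The log2 fold change with ibrutinib exposure was -0.63 ± 0.09 (adjusted p = 0.000560), a fall to 0.647 of the level without ibrutinib, in 6 of 6 pairs. It passed in all 23 alternatives run, with the sign turned only where columns were assigned by the descriptions. Its sister kinase gene PLK2 was low (1.21 to 3.42 CPM) and had a log2 fold change of -0.53 ± 0.18 with ibrutinib, down in 5 of 6 pairs (adjusted p = 0.0582).

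BTG1, BTG2 and GADD45A, which restrain proliferation or respond to stress, did not pass for either agent. BTG2 stood at 91.0, 152 and 161 CPM with DMSO, 84.7, 199 and 195 with ibrutinib, 114, 149.8 and 155 with SPX5551 and 88.4, 204 and 243 with the combination. The 8 and 12 h libraries were above the 4 h library in every treatment. Its fold change with ibrutinib was 0.22 ± 0.10 on the log2 scale (adjusted p = 0.138). BTG1 stood at 57.6, 72.4 and 63.8 CPM with DMSO, 50.9, 69.9 and 73.9 with ibrutinib, 61.3, 87.3 and 74.1 with SPX5551 and 49.9, 68.98 and 63.8 with the combination. Its log2 fold change was -0.14 ± 0.07 with ibrutinib (adjusted p = 0.169). GADD45A, which binds cell cycle and repair proteins, stood at 17.3, 25.6 and 21.7 CPM with DMSO, 17.9, 26.5 and 31.3 with ibrutinib, 18.2, 28.6 and 29.1 with SPX5551 and 21.1, 31.5 and 22.5 with the combination. Its log2 fold changes were 0.11 ± 0.09 with ibrutinib and 0.11 ± 0.09 with SPX5551. In each of these 3 genes the treatments overlapped.

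Of the repair and nucleotide supply genes, POLH rose with ibrutinib and DDB2 with SPX5551. POLH, the DNA polymerase eta that copies past ultraviolet lesions, stood at 42.7, 45.9 and 68.7 CPM with DMSO, 56.3, 69.4 and 70.0 with ibrutinib, 47.9, 40.6 and 47.6 with SPX5551 and 58.5, 50.6 and 73.8 with the combination. It was higher with ibrutinib in 6 of 6 pairs (log2 fold change 0.38 ± 0.09, adjusted p = 0.0136), although the 12 h DMSO library lay within the range of the ibrutinib libraries. That call was lost without the 8 h SPX5551, 12 h SPX5551 or 12 h combination library (adjusted p 0.0529 to 0.0625) and without the 8 h or 12 h time point (0.143 and 0.0602). POLH overlaps GTPBP2 on the other strand (mean 72.8 CPM), and whether counting used strand is not given in the sources used here. DDB2, the damage sensor of nucleotide excision repair and the gene whose promoter match above has no mismatch, stood at 15.7, 17.2 and 21.1 CPM with DMSO, 15.6, 18.3 and 24.0 with ibrutinib, 21.2, 21.6 and 25.6 with SPX5551 and 17.5, 26.3 and 25.8 with the combination. It was higher with SPX5551 in 6 of 6 pairs (log2 fold change 0.31 ± 0.08, adjusted p = 0.0308), and had 0.05 ± 0.08 with ibrutinib (adjusted p = 0.676). Leaving out 1 of 6 libraries (8 or 12 h DMSO, 4 or 8 h ibrutinib, 12 h SPX5551, 8 h combination) or any time point ended the DDB2 call (adjusted p 0.0539 to 0.125, and 0.0648 to 0.325), and so did removing the length trend (log2 fold change 0.23, adjusted p = 0.0773).
XPC, which recognises helix-distorting lesions, stood at 29.6, 33.0 and 44.2 CPM with DMSO, 34.3, 43.8 and 43.4 with ibrutinib, 33.7, 33.5 and 35.7 with SPX5551 and 35.9, 39.0 and 45.4 with the combination. RRM2B, a p53-inducible ribonucleotide reductase subunit, ranged over 54.8 to 85.6 CPM. Both were near the threshold with ibrutinib, XPC at 0.21 ± 0.07 (adjusted p = 0.0597) and RRM2B at 0.23 ± 0.08 (adjusted p = 0.0590), each up in 5 of 6 pairs.

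In metabolism and redox, SESN1 was the gene that rose. SESN1, a sestrin that restrains mTORC1 signalling, stood at 10.7, 11.6 and 11.6 CPM with DMSO, 12.1, 13.55 and 13.1 with ibrutinib, 11.7, 11.6 and 12.0 with SPX5551 and 16.7, 15.6 and 15.5 with the combination. The 3 combination libraries were the highest of the 12, the 3 ibrutinib libraries came next, and the 6 libraries without ibrutinib were all lower. The log2 fold change with ibrutinib exposure was 0.32 ± 0.08 (adjusted p = 0.0208), in 6 of 6 pairs. It ended without 8 or 12 h SPX5551 or 4 or 12 h combination (adjusted p 0.0672 to 0.0738) and without any time point (0.0810 to 0.166). TIGAR, a fructose bisphosphatase that diverts glucose to the pentose phosphate pathway, stood at 27.9, 21.1 and 19.5 CPM with DMSO, 25.1, 19.6 and 20.8 with ibrutinib, 24.6, 22.0 and 20.9 with SPX5551 and 27.1, 20.0 and 17.3 with the combination. The treatments overlapped, and the log2 fold changes were -0.07 ± 0.07 (ibrutinib) and -0.02 ± 0.07 (SPX5551). FDXR, the ferredoxin reductase gene with a match above, ranged over 8.40 to 16.4 CPM, with 0.28 ± 0.11 for SPX5551 (adjusted p = 0.122). TP53I3, a quinone oxidoreductase, ranged over 2.89 to 5.25 CPM, with -0.12 ± 0.14 and 0.03 ± 0.14 for ibrutinib and SPX5551.

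The cell death and survival genes moved in both directions. APAF1 (ENSG00000120868.12, chr12:98645141-98735433), the scaffold of the apoptosome, stood at 12.5, 19.9 and 24.3 CPM with DMSO, 17.4, 30.6 and 29.8 with ibrutinib, 16.9, 22.4 and 19.3 with SPX5551 and 25.9, 28.6 and 37.1 with the combination. At each time both libraries with ibrutinib were above both without it, while the groups overlapped when the times were pooled. The log2 fold change with ibrutinib exposure was 0.55 ± 0.10 (adjusted p = 0.00423), a 1.46-fold higher level, in 6 of 6 pairs. No single library ended that call, and leaving out 8 h did (adjusted p = 0.0680). TP53INP1, a nuclear protein that promotes p53-dependent death and autophagy, stood at 4.81, 7.86 and 10.4 CPM with DMSO, 4.74, 13.1 and 19.2 with ibrutinib, 6.54, 11.3 and 9.21 with SPX5551 and 5.92, 12.6 and 16.9 with the combination. It passed with ibrutinib (log2 fold change 0.45 ± 0.14, adjusted p = 0.0413) in 4 of 6 pairs, the 2 pairs at 4 h being those that were not higher. Leaving out any library except 4 h ibrutinib, 4 h SPX5551 or 8 h combination ended this call (adjusted p 0.0668 to 0.163), as did leaving out 8 h or 12 h (0.207 and 0.452) and removing the length trend (log2 fold change 0.36, adjusted p = 0.0656). TP53INP1 lies inside NDUFAF6 on the other strand (mean 45.8 CPM), so its reads may be shared if counting ignored strand.

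TRIAP1, a small mitochondrial protein that limits apoptosis, stood at 73.2, 58.0 and 45.2 CPM with DMSO, 65.7, 42.2 and 43.3 with ibrutinib, 72.6, 63.1 and 62.8 with SPX5551 and 64.0, 52.2 and 42.6 with the combination. It was lower with ibrutinib in 6 of 6 pairs (log2 fold change -0.28 ± 0.07, adjusted p = 0.0219). Without the 12 h SPX5551 or the 12 h combination library the adjusted p was 0.0601 and 0.0629. Without 8 h or 12 h it was 0.152 and 0.109, and with the length trend removed the log2 fold change was -0.16 (adjusted p = 0.0573). TRIAP1 is among the shortest transcripts of the 32 and APAF1, MDM4 and MDM2 among the longest; with the length trend removed, 5 of the 7 ibrutinib calls remained, and the lost ones were TRIAP1 and TP53INP1.
AEN, an exonuclease that degrades DNA in apoptosis and the gene with a match above, stood at 46.7, 43.3 and 43.0 CPM with DMSO, 46.1, 44.1 and 38.1 with ibrutinib, 42.8, 41.3 and 39.3 with SPX5551 and 34.9, 31.3 and 31.5 with the combination. The 3 combination libraries were the lowest of the 12. AEN was lower with SPX5551 in 6 of 6 pairs (log2 fold change -0.25 ± 0.07, adjusted p = 0.0377) and had -0.20 ± 0.07 with ibrutinib (adjusted p = 0.0605). The SPX5551 call ended without 12 h DMSO, without any ibrutinib library, without any combination library (adjusted p 0.0606 to 0.123) and without any time point (0.107 to 0.247). EI24 stood at 518, 509 and 449.5 CPM with DMSO, 503, 430.1 and 419.5 with ibrutinib, 529, 515 and 524 with SPX5551 and 512, 436 and 389 with the combination. Its level was lower with ibrutinib in 6 of 6 pairs without passing (log2 fold change -0.18 ± 0.06, adjusted p = 0.0625). The death receptor gene TNFRSF10A ranged over 11.7 to 16.7 CPM and was lower with SPX5551 in 6 of 6 pairs, also without passing (log2 fold change -0.26 ± 0.08, adjusted p = 0.0556). PERP, a desmosome and apoptosis protein, ranged over 4.18 to 6.18 CPM (0.09 ± 0.11 with ibrutinib, 0.15 ± 0.11 with SPX5551). SPATA18 stood at 0.214, 0.511 and 0.453 CPM with DMSO, 0.617, 0.284 and 0.707 with ibrutinib, 0.309, 0.418 and 0.991 with SPX5551 and 0.263, 0.477 and 0.900 with the combination. No order among treatments could be read at these counts.

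Among the remaining genes none passed with either exposure. ZMAT3, an RNA-binding splicing regulator, stood at 44.9, 30.8 and 25.4 CPM with DMSO, 48.7, 32.2 and 29.9 with ibrutinib, 36.4, 31.8 and 23.5 with SPX5551 and 46.2, 30.7 and 29.8 with the combination. Its log2 fold change was 0.17 ± 0.07 with ibrutinib (adjusted p = 0.0994). FBXW7, the substrate receptor that marks MYC and cyclin E for degradation, stood at 46.3, 37.4 and 41.0 CPM with DMSO, 49.6, 41.0 and 39.8 with ibrutinib, 41.5, 33.3 and 36.7 with SPX5551 and 41.6, 31.6 and 38.0 with the combination. It was lower with SPX5551 in 6 of 6 pairs (log2 fold change -0.20 ± 0.06, adjusted p = 0.0555). RPS27L, a ribosomal protein paralogue that shares sequence with RPS27, ranged over 18.7 to 31.998 CPM, with 0.28 ± 0.10 for SPX5551 (adjusted p = 0.0891). The noncoding TP53TG1 stood at 4.92, 4.60 and 3.02 CPM with DMSO, 5.12, 4.16 and 3.23 with ibrutinib, 4.43, 5.63 and 3.91 with SPX5551 and 5.92, 7.18 and 5.78 with the combination. Its log2 fold change was 0.40 ± 0.13 with SPX5551 (adjusted p = 0.0646).

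**Figure D3:**
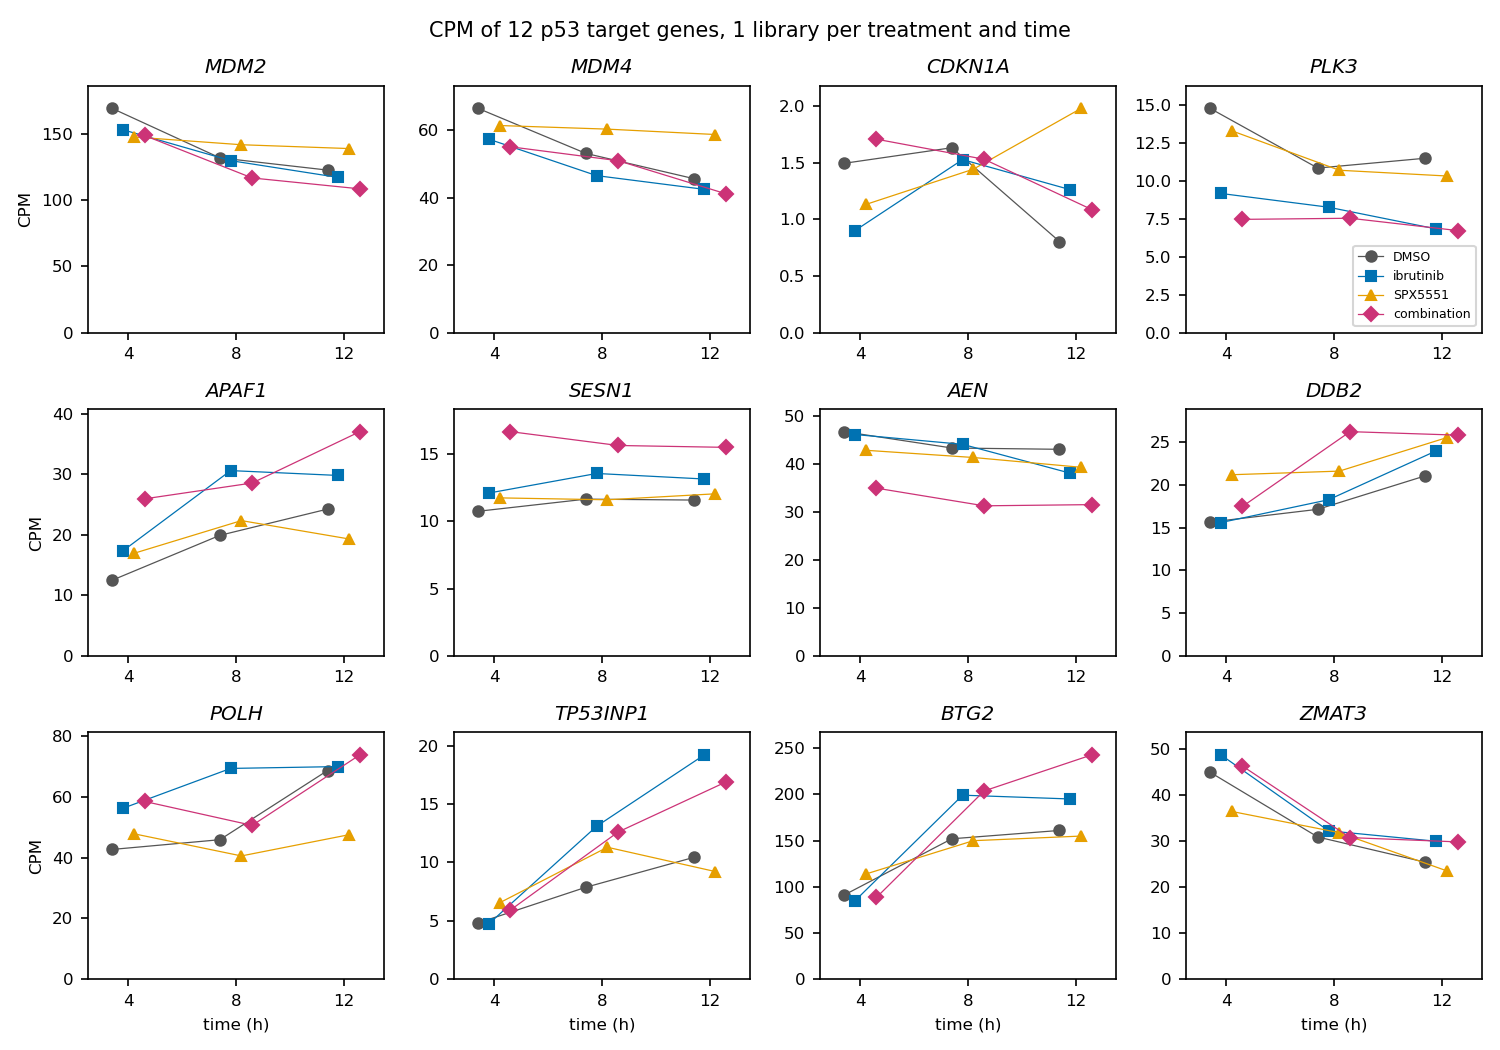
CPM (y axis, from 0) against time in hours (x axis) for 12 of the genes, 1 point per library, points shifted sideways by treatment. PLK3 shows the 6 libraries with ibrutinib under the 6 without, SESN1 and AEN show the combination apart from the rest, and BTG2, TP53INP1 and ZMAT3 change with time in each treatment.

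Treatments were also compared in pairs, each with 3 libraries against 3 and all 12 in the fit. Ibrutinib alone against DMSO gave 0 of 30 genes (0.104% of all genes passed), and DESeq2 gave 1 (0.278%). In edgeR 8 of the 30 were under an unadjusted p of 0.05, as were 1588 of all 14412 genes. SPX5551 alone against DMSO also gave 0 of 30 (0% of all genes), and DESeq2 gave 0. Here 2 of the 30 were under an unadjusted p of 0.05 in edgeR, as were 1200 of all 14412 genes. Without the 12 h time point, ibrutinib alone gave 3 of 30, 2 higher and 1 lower (4.61% of all genes). With all libraries PLK3 had the smallest p with ibrutinib alone (log2 fold change -0.61 ± 0.12, adjusted p = 0.130), and DDB2 with SPX5551 alone had 0.35 ± 0.12 (adjusted p = 0.598). MDM2 and CDKN1A with ibrutinib alone had -0.08 ± 0.09 and -0.08 ± 0.33, and with SPX5551 alone 0.03 ± 0.09 and 0.22 ± 0.32.

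The combination against DMSO gave 5 of 30, 3 higher and 2 lower (9.57% of all genes, 4.16% higher and 5.41% lower). APAF1 (log2 fold change 0.72 ± 0.14, adjusted p = 0.00503), TP53TG1 (log2 fold change 0.61 ± 0.17, adjusted p = 0.0330) and SESN1 (log2 fold change 0.49 ± 0.11, adjusted p = 0.00934) were higher. PLK3 (log2 fold change -0.76 ± 0.12, adjusted p = 0.00163) and AEN (log2 fold change -0.45 ± 0.08, adjusted p = 0.00455) were lower. In all 5 the 3 combination libraries did not overlap the 3 DMSO libraries. The same values gave the calls, so this adds no support to them, and the share of all genes without overlap was not computed. MDM2 had -0.18 ± 0.09 and CDKN1A 0.14 ± 0.32 in the same comparison. Without the 4 h DMSO library 2 genes passed (3.97% of all genes), with APAF1, SESN1 and TP53TG1 at adjusted p of 0.0532, 0.0667 and 0.0632. Without the 4 h time point 0 passed (1.89% of all genes) and without 8 h 2 passed (2.09%). TP53TG1 was lost without any one of 7 libraries (all 3 of DMSO, 12 h ibrutinib, 8 h SPX5551, 8 and 12 h combination; adjusted p 0.0508 to 0.152).

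Against ibrutinib alone, the combination gave 2 of 30 (5.49% of all genes, 2.1% higher and 3.39% lower). Scaled by totals alone it gave 2 higher and 1 lower (4.99% of all genes). With TMM scaling TP53TG1 was higher (log2 fold change 0.61 ± 0.17, adjusted p = 0.0432) and AEN lower (log2 fold change -0.39 ± 0.08, adjusted p = 0.0188). AEN lost this call without 4 or 8 h ibrutinib or 4 or 8 h combination (adjusted p 0.0567 to 0.117), TP53TG1 without 9 of the 12 libraries, all but 12 h DMSO and 4 and 12 h SPX5551 (0.0568 to 0.260). The count was 0 without any 1 of the 4 libraries that ended the AEN call (0.519% to 1.45% of all genes), 1 without 4 or 8 h DMSO, 12 h ibrutinib or 8 h SPX5551 (2.62% to 3.71%), and 4 without 12 h DMSO or 12 h SPX5551 (5.69% and 8.43%). Against SPX5551 alone the combination gave 4 of 30 (7.24% of all genes, 3.27% higher and 3.97% lower). Scaled by totals alone it gave 3 higher and 1 lower (8.77% of all genes). With TMM scaling APAF1 (log2 fold change 0.63 ± 0.14, adjusted p = 0.0131) and SESN1 (log2 fold change 0.43 ± 0.10, adjusted p = 0.0215) were higher. PLK3 (log2 fold change -0.65 ± 0.12, adjusted p = 0.00687) and AEN (log2 fold change -0.34 ± 0.08, adjusted p = 0.0258) were lower. Leaving out 8 or 12 h SPX5551 or 4 or 12 h combination left 1 gene each, PLK3 being the gene of the 4 that no single library ended (2.34% to 3.66% of all genes). Leaving out 12 h DMSO or 8 h ibrutinib gave 8 (7.94% and 8.90%), and leaving out 4 h SPX5551 gave 9 (7.65%). MDM4 and MDM2 did not pass against SPX5551 alone, but passed in 8 and 2 of the 24 alternatives run. The sign of MDM4 was turned in 1 of these, with columns assigned by the descriptions. These comparisons share the combination libraries, and the exposure comparisons share all 12, so their calls are not separate evidence.

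The interaction, which asks whether the combination differs from the sum of the single effects, gave 0 of 30 genes (0% of all genes). DESeq2 also gave 0. In edgeR 3 of the 30 were under an unadjusted p of 0.05, as were 845 of all 14412 genes. AEN (log2 fold change -0.28 ± 0.12, adjusted p = 0.801), BTG1 (log2 fold change -0.28 ± 0.13, adjusted p = 0.842) and FDXR (log2 fold change 0.44 ± 0.20, adjusted p = 0.849) were those 3. The combination values of SESN1, AEN and TP53TG1 were therefore not shown to differ from the sum of the agents.

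From 4 to 12 h these genes changed in both directions. The 4 libraries of a time share 1 replicate number (2 at 4 h, 3 at 8 h and 1 at 12 h). Time and replicate therefore cannot be told apart, and p-values for time do not cover the spread between repeats of a time. From 4 to 12 h, with the 4 treatments standing in as replicates, 17 of 30 passed, 9 higher and 8 lower, where 35.9% of all genes passed (18.4% higher, 17.5% lower). Scaled by totals alone the split was 10 and 5, and the share of all genes at that scaling is not given here. In 19 of 30 genes all 4 treatments moved one way, 9 up and 10 down, as in 46.9% of all genes. TP53INP1 (log2 fold change 1.31 ± 0.18, adjusted p = 7.89e-05) and BTG2 (log2 fold change 0.97 ± 0.13, adjusted p = 7.17e-05) rose most among genes above 1 CPM, and in both the 4 libraries of 12 h lay above the 4 of 4 h. SPATA18 had 1.11 ± 0.39 at under 1 CPM (adjusted p = 0.0374), which ended without any one of 7 libraries (0.0528 to 0.158): 4 h DMSO, 12 h ibrutinib, all 3 of SPX5551, and 4 and 12 h combination. APAF1 (0.61 ± 0.12), GADD45A (0.48 ± 0.11), DDB2 (0.47 ± 0.10), XPC (0.34 ± 0.09), POLH (0.33 ± 0.11) and BTG1 (0.33 ± 0.08) were the other risers, with adjusted p from 0.00137 (APAF1) to 0.0249 (POLH).

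ZMAT3 fell most with time (log2 fold change -0.70 ± 0.09, adjusted p = 4.74e-05), in 4 of 4 treatments and without overlap between 4 and 12 h. TRIAP1 (-0.52 ± 0.09), TIGAR (-0.42 ± 0.09), MDM4 (-0.36 ± 0.08) and MDM2 (log2 fold change -0.35 ± 0.08, adjusted p = 0.00277) also fell in 4 of 4 treatments. PLK3 (-0.33 ± 0.11), EI24 (-0.22 ± 0.08) and FBXW7 (-0.20 ± 0.07) were lower with adjusted p of 0.0258, 0.0366 and 0.0475. MDM2 and the growth arrest gene BTG2 moved in opposite directions over the same hours, and CDKN1A had -0.05 ± 0.28 (adjusted p = 0.914). Single libraries ended the calls of PLK3 (4 h DMSO, 4 and 12 h ibrutinib, 4 h SPX5551), EI24 (12 h DMSO, 4 and 12 h ibrutinib, 4 and 12 h combination) and FBXW7 (all but 8 h ibrutinib and 8 and 12 h combination), at adjusted p of 0.0517 to 0.169. Among the risers they ended those of POLH (4 and 12 h DMSO, 4 h ibrutinib, 4 and 12 h combination) and XPC (4 and 12 h DMSO), at 0.0579 to 0.147.

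The other genes of the pathway were read from lists of regulators of p53, further p53 targets and cell cycle genes that p53 lowers through p21. CDKN2A, which encodes the MDM2 inhibitor ARF, was at 0 counts in every library, which allows up to 3 counts in each (counting error only). Of 18 tested regulators, 3 (16.7%) passed with ibrutinib, all higher, against 13.7% of all genes (7.14% higher). They were the acetyltransferases EP300 (0.51 ± 0.13) and CREBBP (0.43 ± 0.12) and the damage adaptor MDC1 (0.34 ± 0.10). With SPX5551, 6 of 18 (33.3%) passed, all lower, against 7.01% of all genes (4.89% lower). None of these 6 calls held without the 8 h or without the 12 h time point, where 0.0% of all genes passed. The 6 were the kinases PRKDC (-0.54 ± 0.12), HIPK2 (-0.43 ± 0.10) and ATR (-0.30 ± 0.08) with EP300 (-0.49 ± 0.13), RBBP6 (-0.27 ± 0.08) and the deubiquitinase USP7 (-0.22 ± 0.06). EP300, PRKDC and HIPK2 have transcripts of 9587, 13509 and 15049 bases, and the length trends of the 2 exposures, 0.37 and -0.40, run in the same directions as these values; their part was not tested. USP7 (-0.33 ± 0.08) and PRKDC (-0.65 ± 0.18) also passed lower in the combination against ibrutinib alone (11.1% of the list, against 5.49% of all genes, 3.39% lower). With time, 8 of 18 (44.4%, against 35.9% of all genes) passed, 5 higher and 3 lower, the damage kinase ATM first (1.11 ± 0.15, adjusted p = 0.000106), with RCHY1 (-0.35 ± 0.09), CHEK1 (-0.31 ± 0.08), KAT5 (-0.27 ± 0.09) and CHEK2 (0.23 ± 0.08).

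Of 26 further p53 targets tested, 4 passed with ibrutinib (15.4%, against 13.7% of all genes). SUSD6 (0.29 ± 0.07) and PIDD1 (0.40 ± 0.12), a death domain protein of the caspase-2 platform, were higher, and TRAF4 (-0.50 ± 0.07) and the pore-forming death effector BAX (-0.26 ± 0.07) were lower. With SPX5551, ANKRA2 (0.39 ± 0.10) and the iron-sulfur scaffold ISCU (0.21 ± 0.06) were higher and CYFIP2 (-0.28 ± 0.08) lower (11.5% of the list, against 7.01% of all genes). The combination against DMSO gave 6 (23.1%, against 9.57% of all genes): 4 higher, SERTAD1 (0.79 ± 0.18), PIDD1 (0.78 ± 0.14), ANKRA2 (0.54 ± 0.15) and TOB1 (0.41 ± 0.10), and 2 lower, TRAF4 (-0.51 ± 0.10) and PTP4A1 (-0.29 ± 0.08). Against ibrutinib alone PIDD1 (0.68 ± 0.14) and SERTAD1 (0.75 ± 0.18) were higher and PTP4A1 (-0.29 ± 0.08) lower. Against SPX5551 alone PIDD1 (0.68 ± 0.14) and SERTAD1 (0.75 ± 0.18) were higher and TRAF4 (-0.55 ± 0.10) lower (3 of 26, or 11.5%, in each, against 5.49% and 7.24% of all genes). From 4 to 12 h, 9 were higher and 4 lower (50% of the list, against 35.9% of all genes), the 6 of smallest p being TRIM22 (0.94 ± 0.09), NINJ1 (0.67 ± 0.10), TRAF4 (-0.43 ± 0.09), BBC3 (1.18 ± 0.28), PTP4A1 (-0.27 ± 0.07) and TNFRSF10B (0.44 ± 0.11).

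None of the 24 cell cycle genes passed lower with ibrutinib exposure, SPX5551 exposure or the combination against DMSO. Of all genes 6.58%, 4.89% and 5.41% did so, in that order, so few of 24 would be called at these shares. With ibrutinib exposure KIF20A (0.30 ± 0.08), TOP2A (0.28 ± 0.08), BUB1 (0.25 ± 0.08) and CENPF (0.33 ± 0.10), all mitotic or chromosome genes, passed higher (16.7% of the list, against 13.7% of all genes, 7.14% higher). With SPX5551 exposure the phosphatase gene CDC25C (0.37 ± 0.09) passed higher (4.17%, against 7.01%, 2.12% higher). In the combination against DMSO CDC25C (0.43 ± 0.13) and CCNB2 (0.33 ± 0.09) did (8.33%, against 9.57%, 4.16% higher). From 4 to 12 h, 8 were higher and 7 lower (62.5% of the list, against 35.9% of all genes), the 6 of smallest p being BRCA1 (0.89 ± 0.12), CCNB1 (-0.54 ± 0.08), AURKA (-0.52 ± 0.08), BUB1 (0.60 ± 0.10), CDC25C (0.70 ± 0.11) and FOXM1 (0.51 ± 0.09).

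In the comparisons of these 3 lists where no gene passed, the 2 of smallest p are given with their log2 fold changes. For ibrutinib alone against DMSO they were EP300 (0.47 ± 0.19) and CREBBP (0.38 ± 0.17) among regulators, TRAF4 (-0.45 ± 0.10) and TOB1 (0.36 ± 0.10) among further targets, and BUB1B (0.28 ± 0.11) and KIF20A (0.25 ± 0.11) among cell cycle genes. For SPX5551 alone they were HIPK2 (-0.40 ± 0.15) and EP300 (-0.53 ± 0.20), TOB1 (0.32 ± 0.10) and ANKRA2 (0.38 ± 0.15), and CDC25C (0.31 ± 0.13) and BIRC5 (0.20 ± 0.10). For the interaction they were PIDD1 (0.58 ± 0.21) and SERTAD1 (0.71 ± 0.26) among further targets and BUB1B (-0.22 ± 0.16) and CDC25C (0.13 ± 0.18) among cell cycle genes, and USP7 had -0.22 ± 0.12 among regulators. Among regulators the combination gave USP7 (-0.21 ± 0.08) and RBBP6 (-0.23 ± 0.11) against DMSO and EP300 (0.54 ± 0.20) and CREBBP (0.47 ± 0.17) against SPX5551. Among cell cycle genes it gave CDC25C (0.43 ± 0.13) and CCNB2 (0.24 ± 0.09) against ibrutinib and KIF20A (0.35 ± 0.11) and TOP2A (0.32 ± 0.11) against SPX5551.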

How the data were processed

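Poly(A) RNA of REC1 cells was sequenced on a NextSeq2000 from directional libraries, per the labels' protocols. The molecule field reads genomic DNA, against those protocols. BWA and hg38 were used, per the submitters' processing notes. Which counting tool, annotation and strand setting were used is not given in the sources used here. The authors deposited whole-number counts for 60483 genes and log2 CPM for 14767, used only in an alternative. Columns were assigned by the treatment and time in their headers; the ibr headers also stand in descriptions of other samples, so these went to the ibrutinib group by header alone. Symbols, for 93.8% of identifiers, and lengths came from GENCODE release 29.

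Counts were tested with edgeR 4.0.16 (R 4.3.3): TMM scaling, filterByExpr by treatment (14412 genes), quasi-likelihood F-test, Benjamini-Hochberg over all genes, threshold 0.05. Models had treatment and time, or ibrutinib exposure, SPX5551 exposure and time. The standard error is the log2 fold change divided by the root of F. The method was tested on simulated counts. Depth was 19336303 to 28934030 counts per library; no molecular identifiers are named, so reads are not independent molecules and counting error is a lower limit.

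The 32 genes and all lists were chosen with earlier results of these data known. Every gene of the 32 is given; per-library values are given for those that passed anywhere and for MDM2, MDM4 and CDKN1A. From other lists, at most 6 passing genes per comparison by smallest p are named, and the 2 of smallest p where none passed; 1 regulator named by this rule is not reported here. Alternatives were DESeq2 1.42.0, scaling by library totals, no filter, limma-trend (3.58.1) on the deposited log2 CPM, no time term, only the groups compared, columns by description, length trend removed, and each library or time left out.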

Additional observations from a re-analysis of the deposited data

How the results depend on the processing

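Counts of passing genes are of the 30 tested genes (32 with no filter, 29 for single agents against DMSO when only those groups were fitted), log2 values are fold changes, and percentages in parentheses are the share of all tested genes that passed under the same setting, in the same order. The time term acts as the replicate block, since a time holds 1 library of each treatment. With no replicate block, the combination gave 0 genes against DMSO, 0 against ibrutinib and 0 against SPX5551, ibrutinib exposure gave 1 and SPX5551 exposure 0 (0.187%, 0.0%, 0.0347%, 0.201% and 0.0%). With columns assigned by the free-text descriptions, ibrutinib against DMSO gave 5, SPX5551 against DMSO 2, the combination against ibrutinib 0, the interaction 2, ibrutinib exposure 2 and SPX5551 exposure 0 (9.57%, 5.49%, 0.0%, 6.75%, 2.62% and 0.0%). That reading turned the sign for the combination against DMSO in PLK3 (0.65), SESN1 (-0.43), AEN (0.34), APAF1 (-0.63) and TP53TG1 (-0.44). It did so against SPX5551 in MDM4 (0.32), PLK3 (0.50), SESN1 (-0.13) and APAF1 (-0.38), for SPX5551 exposure in AEN (0.14), and for ibrutinib exposure in MDM4 (0.24), PLK3 (0.63), POLH (-0.38), SESN1 (-0.31), TP53INP1 (-0.44), APAF1 (-0.55) and TRIAP1 (0.28). No other alternative run turned the sign of a passing gene, or of MDM2, MDM4 or CDKN1A where either value passed.

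DESeq2 gave 1 gene for ibrutinib against DMSO, 4 for the combination against ibrutinib, 9 against SPX5551 and 4 for SPX5551 exposure (0.278%, 8.40%, 10.1% and 10.6%). With no filter on low counts these were 3 for ibrutinib against DMSO, 4 for the combination against ibrutinib and 4 for SPX5551 exposure (0.671%, 4.36% and 5.15%). Scaling by library totals gave 11 for ibrutinib exposure and 1 for SPX5551 exposure (15.6% and 5.19%). limma-trend gave 1 for the combination against ibrutinib (4.68%). Fitting only the groups compared gave 10 for the combination against DMSO, 1 against ibrutinib and 2 against SPX5551 (18.7%, 3.98% and 3.51%). With the length trend removed, the combination gave 8 against DMSO, 5 against ibrutinib and 10 against SPX5551, and SPX5551 exposure gave 4 (15.8%, 8.27%, 13.2% and 6.19%). Leaving out 8 h ibrutinib together with 12 h SPX5551, chosen after seeing the data, gave 1 for ibrutinib against DMSO, 10 and 1 for the combination against DMSO and ibrutinib, 2 for ibrutinib exposure and 0 for SPX5551 exposure (0.287%, 17.4%, 4.02%, 3.50% and 1.76%). The cause was not tested in these cases.

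Leaving out 1 library at a time gave 2 to 6 genes for the combination against DMSO, 0 to 4 against ibrutinib, 1 to 9 against SPX5551, 2 to 11 for ibrutinib exposure and 0 to 6 for SPX5551 exposure (3.84% to 11.3%, 0.519% to 8.43%, 2.34% to 8.90%, 2.80% to 17.9% and 0.554% to 12.2%). Without the 4 h, 8 h and 12 h time point in turn, the combination gave 0, 2 and 4 against DMSO (1.89%, 2.09% and 5.40%), 0, 0 and 3 against ibrutinib (0.0136%, 0.0415% and 11.3%), and 0, 2 and 1 against SPX5551 (0.879%, 3.07% and 3.91%). SPX5551 exposure gave 1, 0 and 0 (4.34%, 0.0% and 0.0%). Ibrutinib exposure gave 1 without 8 h and 2 without 12 h (0.574% and 1.25%), and ibrutinib against DMSO gave 3 without 12 h (4.61%). From 4 to 12 h the count stayed between 12 and 19 in every alternative run. With 1 library or the 8 h time point left out it was 12 to 18, where 24.1% to 37.4% of all genes passed. MDM2, MDM4, BTG1, BTG2, GADD45A, DDB2, TIGAR, TP53INP1, TRIAP1 and ZMAT3 passed in all 22 alternatives. CDKN1A, PLK2 and SPATA18 had the lowest levels per kilobase of the tested genes, and PHLDA3 and GDF15 were too low to test.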
